A study of Homo sapiens with 18 samples.

Results

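The 55 genes described here act in mitosis: cyclins and kinases that drive entry, checkpoint and kinetochore proteins, spindle kinesins, and factors of chromosome separation and cytokinesis. They were chosen by symbol from a list of G2/M genes, with earlier results of these data known. Each matched 1 row of the 78724 genes in the count table. The filter on low counts left 15558 genes to be tested, 54 of the members among them. The RNA came from THESC, an established human line of endometrial stroma immortalised with telomerase, carried as 3 CRISPR-engineered lines in blasticidin. NT cells held a non-targeting guide and are labelled WT. U1U2 cells held the U1U2 guides and are labelled PGRA/B-equivalent, and promoter cells held a promoter guide and are labelled PGRB-dominant. In both of these lines PGR, the progesterone receptor gene, was activated. All lines were moved to medium with 2% serum, and then received either vehicle (0.01% ethanol) or 1 µM medroxyprogesterone acetate (MPA, a synthetic progestin) for 72 h. Each of the 6 groups had 3 libraries, 18 in all. The labels do not say whether a line is 1 clone or a pool, nor whether the 3 libraries of a group came from separate cultures, so the p-values measure the spread between these libraries, which may be technical.

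Cells enter mitosis when cyclin B binds and activates CDK1. Aurora and Polo-like kinases then build the spindle, kinesin motors move and align chromosomes on it, and kinetochores attach each chromosome to spindle microtubules. The spindle checkpoint holds the anaphase-promoting complex in check until every kinetochore is attached, after which securin and cyclin B are destroyed, separase opens cohesin and the cell divides. Transcripts of these genes rise together late in the cell cycle, through the MuvB complex with B-MYB and FOXM1, and are held down in resting cells by the DREAM complex. Both bind the cell cycle homology region (CHR), often beside a CCAAT box bound by NF-Y. In the endometrium, progesterone is known for ending the proliferation that oestrogen drives and for turning stromal cells into decidual cells.

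Library totals ran from 11.9 to 33.4 M counts (median 22.9 M), and mitochondrial genes took 1.63% to 3.03% of them. All 10 stromal markers were abundant, with COL1A1 between 1734 and 4085 CPM (counts scaled to a common library total). Of the endothelial and leukocyte markers, CLDN5 and CD3D had 0 counts in every library and PECAM1 0 to 4, while PTPRC had 33 to 143. Of the epithelial markers, KRT8, KRT18 and KRT19 were present at 2.29 to 31.6 CPM and MUC1 at 3.26 to 5.32 CPM (48 to 166 counts). EPCAM had 3 to 34 counts, KRT7 2 to 10, and CDH1 and PAX8 0 to 6 each. PGR exceeded its NT vehicle level in both activated lines, by 2.09 ± 0.13 on the log2 scale (value ± standard error) in U1U2 cells and 1.63 ± 0.12 in promoter cells, as their labels state.

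Levels of the mitotic genes spanned a wide range. Per kilobase of exon, TOP2A, which untangles replicated DNA, was the most abundant member, with a mean of 55.2 CPM per kb over the 18 libraries. The cytokinesis scaffold ANLN (43.9), the spindle assembly factor TPX2 (41.9) and CCNB1, cyclin B1 (35.5), followed. The lowest of the other tested members were the separase gene ESPL1 (0.417 CPM per kb) and the kinesin KIF18B (0.918). A pair of members was near the floor. NUSAP1, a microtubule bundler, had 0 to 3 counts in each library and was not tested. PRC1, which bundles the central spindle, had 2 to 17 counts. Both overlap another protein-coding gene on the same strand in GENCODE 29, as do BUB1B and CENPA, and 20 of the 55 overlap some protein-coding or antisense gene. The strand setting of the counting is not given in the sources used here, so reads of such pairs cannot be told apart with certainty. KIF4A and PTTG1 also have near-identical copies (KIF4B and PTTG2) and are uncertain for that reason.

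The members were highest in promoter cells without progestin. Of the 54 tested, 53 had their highest group mean in promoter vehicle. In 39 of them all 3 promoter vehicle libraries lay above all 15 other libraries. Neither count was made over all tested genes, so no background share stands beside them. Taking each gene's log2 CPM less its mean over the 18 libraries, the median over the 54 members was 0.55, 0.42 and 0.42 in the promoter vehicle libraries. It lay between -0.27 and 0.06 in the other 15. Over all tested genes the same median stayed between -0.01 and 0.03. NT vehicle had the lowest mean for 30 members, NT MPA for 14 and promoter MPA for 8. PRC1, at its very low counts, was the exception, with its highest mean in NT vehicle. Bulk RNA cannot tell fewer mitotic cells from less of each transcript per cell. Mitochondrial genes took 1.63% to 2.15% of counts in promoter vehicle, 2.01% to 2.15% in promoter MPA and 2.51% to 3.03% in NT vehicle. The part of this difference in the results was not tested.

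**Figure D1:**
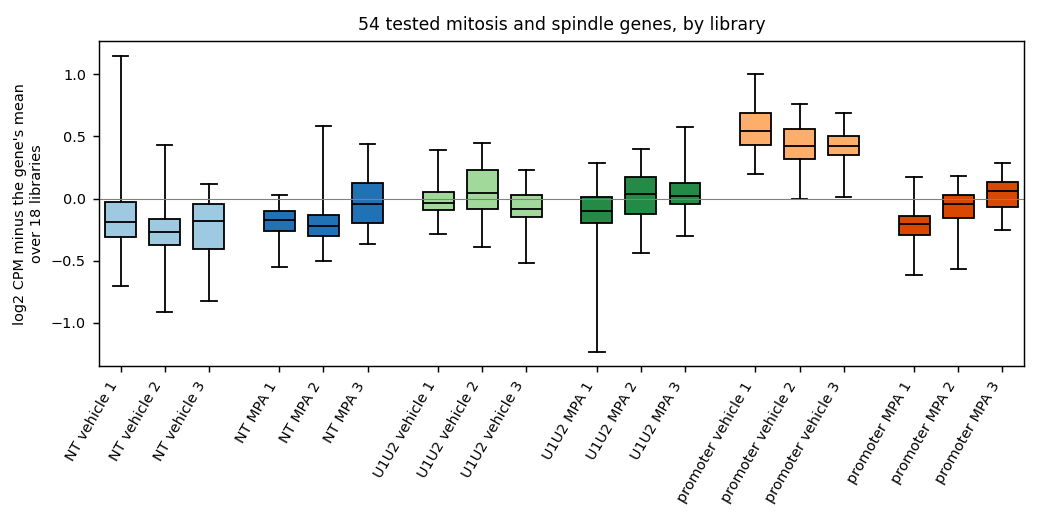
Each box shows, for 1 library, the 54 tested members as log2 CPM minus the gene's own mean over the 18 libraries (line, median; box, quartiles; whiskers, full range). The 3 promoter vehicle boxes have medians of 0.42 to 0.55, above the medians of the other 15 libraries (-0.27 to 0.06).

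The promoters of 6 members are shown with the elements known for late cell cycle transcription. They are RefSeq sequences on GRCh38.p14, 250 bases before to 50 after the first listed start, written 5′ to 3′ along the gene: chr5:69166900-69167199 (plus strand) for CCNB1, chr2:26785806-26786105 (plus strand) for CENPA, chr17:44947724-44948023 (minus strand) for KIF18B, chr14:55191536-55191835 (minus strand) for DLGAP5, chr7:36389612-36389911 (plus strand) for ANLN and chr17:40417847-40418146 (minus strand) for TOP2A. Capitals mark the CHR in its forms TTTGAA and TTTAAA and the CCAAT box, on either strand, so TTCAAA and ATTGG are also in capitals.
CCNB1: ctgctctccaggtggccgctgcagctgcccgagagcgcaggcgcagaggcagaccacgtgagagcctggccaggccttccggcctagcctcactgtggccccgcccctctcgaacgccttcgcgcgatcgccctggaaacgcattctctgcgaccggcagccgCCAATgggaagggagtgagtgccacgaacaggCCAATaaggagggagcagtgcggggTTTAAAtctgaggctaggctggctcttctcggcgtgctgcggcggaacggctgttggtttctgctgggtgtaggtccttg
CENPA: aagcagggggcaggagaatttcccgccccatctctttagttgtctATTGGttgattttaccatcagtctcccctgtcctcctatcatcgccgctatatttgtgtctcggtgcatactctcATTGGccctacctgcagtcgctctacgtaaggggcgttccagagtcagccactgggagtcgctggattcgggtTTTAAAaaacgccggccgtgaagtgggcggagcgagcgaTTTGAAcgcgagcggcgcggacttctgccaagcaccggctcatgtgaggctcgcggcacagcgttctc
KIF18B: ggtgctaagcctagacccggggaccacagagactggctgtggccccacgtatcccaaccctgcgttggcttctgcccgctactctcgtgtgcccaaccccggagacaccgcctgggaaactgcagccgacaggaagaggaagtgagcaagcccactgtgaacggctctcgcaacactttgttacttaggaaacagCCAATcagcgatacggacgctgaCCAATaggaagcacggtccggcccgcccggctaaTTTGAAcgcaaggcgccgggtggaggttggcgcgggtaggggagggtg
DLGAP5: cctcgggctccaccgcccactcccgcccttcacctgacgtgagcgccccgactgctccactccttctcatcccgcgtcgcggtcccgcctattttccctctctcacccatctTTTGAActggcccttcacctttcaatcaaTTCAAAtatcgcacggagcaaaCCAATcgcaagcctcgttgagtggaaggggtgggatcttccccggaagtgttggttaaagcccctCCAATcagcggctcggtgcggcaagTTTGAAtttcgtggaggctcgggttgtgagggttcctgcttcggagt
ANLN: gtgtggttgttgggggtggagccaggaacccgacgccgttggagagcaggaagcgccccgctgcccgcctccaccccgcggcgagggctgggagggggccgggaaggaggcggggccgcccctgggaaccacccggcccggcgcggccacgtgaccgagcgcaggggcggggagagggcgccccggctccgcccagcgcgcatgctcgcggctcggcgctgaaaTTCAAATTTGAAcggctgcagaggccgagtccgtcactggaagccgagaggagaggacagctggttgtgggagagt
TOP2A: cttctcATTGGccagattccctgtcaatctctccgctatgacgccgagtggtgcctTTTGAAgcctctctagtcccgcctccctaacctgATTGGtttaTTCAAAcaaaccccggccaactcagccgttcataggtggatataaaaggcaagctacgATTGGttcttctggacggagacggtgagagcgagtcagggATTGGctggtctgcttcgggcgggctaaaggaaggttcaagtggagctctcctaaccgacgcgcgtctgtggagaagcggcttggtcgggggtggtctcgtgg
CCNB1 and KIF18B carry 2 CCAAT boxes upstream of 1 CHR. The promoter of DLGAP5, a spindle protein, holds 3 CHR matches, and in that of ANLN 2 matches abut as a palindrome with no CCAAT. Promoters were matched for 46 of the 55 members. AURKA, BIRC5, BUB3, CDCA2, FOXM1, PIMREG, TPX2, TTK and UBE2C had no entry. TTTGAA was found in 31 of the 46 (67.4%) against 15.4% of all 27305 promoters of this length, and TTTAAA in 15 (32.6%) against 12.3%. Either form stood in 37 (80.4% against 24.3%), CCAAT in 37 (80.4% against 35.7%), and both elements in 31 (67.4% against 9.49%). Of the 59 CHR matches in members, 62.7% had their middle within 50 bases of the start, against 27.1% of all such matches. For CCAAT the shares were 24.0% and 24.2%. The progesterone response element, GNACA and TGTNC with any 3 bases between, was in none of the 46 and in 0.388% of all promoters. The shorter hormone response motif AGAACA was in 4 (8.7%) against 14.9%. These are letter matches and not shown to be bound in these cells. The members were listed as G2/M genes, the class for which CHR and CCAAT elements are known. Their shares of these elements thus come from the choice of list and not from these libraries. All of these elements were searched on both strands, and matches of different elements were counted separately where they overlapped.

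**Figure D2:**
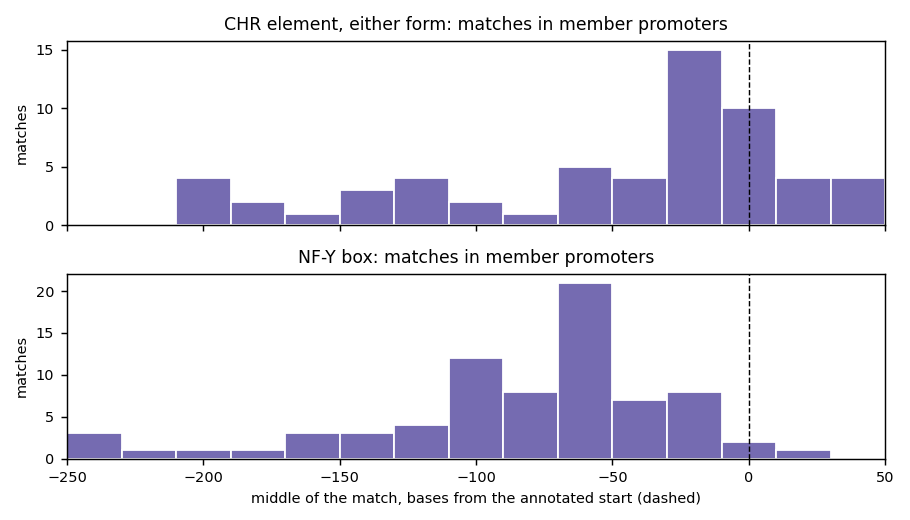
Middle of each CHR match (upper) and CCAAT match (lower) in the 46 member promoters, in bases from the annotated start (dashed line); bars count matches. CHR matches gather at the start, 62.7% within 50 bases, and CCAAT matches mostly lie further upstream.

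MPA lowered most mitotic genes in promoter cells. By edgeR's quasi-likelihood test 39 of 54 fell and none rose, where 8.4% of all tested genes fell. All 54 log2 changes were negative, from -1.07 to -0.14, and their median was -0.53, which is 0.692 of the vehicle level. The median of all tested genes was 0.00. In 49 of the 54, the 3 MPA libraries all lay below the 3 vehicle libraries, as in 18.1% of tested genes. Leaving out any 1 library of these groups gave 33 to 38 members, and 32 members fell in every such fit. Sums of markers of other cell types moved in the same comparison. The leukocyte sum was in effect PTPRC, as no other leukocyte marker passed 5 counts in any library. No endothelial marker passed 11 counts. The summed epithelial markers ran from 38.4 to 53.2 CPM in promoter vehicle and from 27.4 to 36.1 in MPA, the leukocyte markers from 4.06 to 4.64 and from 1.88 to 2.36, and the endothelial markers from 0.188 to 0.445 and from 0.0761 to 0.113. The summed stromal markers went the other way, from 15566 to 23576 CPM in vehicle and from 27409 to 29268 in MPA. Abundant genes weigh most in these sums, so they do not show that each marker moved. Over the 18 libraries FN1 had 5271 to 14712 CPM and THY1 53.0 to 124, KRT19 7.31 to 31.6 and CDH1 0 to 0.192. In NT cells, where no member was called, the leukocyte sum was likewise 4.35 to 5.57 CPM in vehicle and 1.83 to 2.41 in MPA. In U1U2 cells, also without a called member, it was 3.59 to 4.24 and 1.59 to 2.01. The epithelial sum overlapped between vehicle and MPA in NT cells (29.2 to 44.4 and 24.1 to 36.4 CPM). It also overlapped in U1U2 cells (34.6 to 45.7 and 20.9 to 41.8). Stromal sums overlapped in NT cells (18430 to 24544 and 23563 to 32107). In U1U2 cells they were apart (19666 to 20586 and 26084 to 30596). The endothelial sum was apart in NT cells and overlapped in U1U2 cells. The part of these markers in the results was not tested.

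Among cyclins and their partners, 5 of 6 fell. CCNB1 (ENSG00000134057, chr5:69167010-69178245 on GRCh38) stood at 158, 148 and 99.5 CPM in promoter vehicle and 65.4, 71.3 and 79.1 in promoter MPA. The groups did not overlap, although promoter vehicle replicate 3 was well below the other two. The log2 change was -0.91 ± 0.22 (adjusted p = 0.00702). CDC25C (ENSG00000158402, chr5:138285265-138338355), a phosphatase that activates CDK1, had 13.0, 9.79 and 10.5 CPM in vehicle and 5.39, 6.05 and 6.19 in MPA. Its fall was the steepest of this list, at -0.92 ± 0.15 (adjusted p = 0.00032). CDK1 itself fell by 0.69 ± 0.11 on the log2 scale, CCNB2 by 0.69 ± 0.14 and CCNA2, cyclin A2, by 0.49 ± 0.09. The phosphatase CDC25B did not pass (-0.29 ± 0.16).

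Of the kinases and the chromosomal passenger complex, 4 of 7 fell. AURKA (ENSG00000087586, chr20:56369389-56392337), the kinase of spindle poles, went from 66.6, 61.8 and 55.1 CPM to 33.2, 36.1 and 39.9. Every vehicle library was above every MPA library, and the change was -0.75 ± 0.15 (adjusted p = 0.0014). Its counterpart in the passenger complex, AURKB, measured -0.67 ± 0.25 (adjusted p = 0.083) and did not pass. The complex's other subunits did: CDCA8 (borealin) at -0.73 ± 0.14, BIRC5 (survivin) at -0.55 ± 0.11 and INCENP at -0.50 ± 0.11. PLK1, whose values were singled out after they were seen, was 23.0, 16.5 and 25.7 CPM in promoter vehicle and 18.7, 16.9 and 18.9 in MPA. Those libraries overlapped, and its change was -0.27 ± 0.24. The centrosomal kinase NEK2 gave -0.36 ± 0.13 (adjusted p = 0.0807).

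All 5 spindle checkpoint genes fell. BUB1 (ENSG00000169679, chr2:110637698-110678114), a checkpoint kinase of the kinetochore, went from 75.7, 67.0 and 65.1 CPM to 38.9, 46 and 51.9. The groups were apart and the change was -0.60 ± 0.11 (adjusted p = 0.000786). The kinase TTK (-0.57 ± 0.12), MAD2L1 (-0.55 ± 0.12) and BUB1B (-0.49 ± 0.10) were lower by similar amounts. BUB3 (ENSG00000154473, chr10:123154277-123170467), their binding partner, had 202, 234 and 182 CPM in vehicle and 157, 170 and 166 in MPA. It passed narrowly (-0.32 ± 0.11, adjusted p = 0.0462). Its call was lost without promoter vehicle replicate 1 (-0.33) or replicate 2 (-0.22), and without promoter MPA replicate 1 (-0.29), 2 (-0.35) or 3 (-0.33). With all libraries kept, it was also lost with median-ratio size factors (-0.32), a replicate block (-0.32) and DESeq2 (-0.32).

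Of 7 centromere and kinetochore genes 3 fell. CENPA (ENSG00000115163, chr2:26764289-26801067), the histone that marks centromeres, had 12.7, 12.2 and 10.9 CPM in promoter vehicle and 6.82, 6.58 and 9.35 in MPA, a change of -0.65 ± 0.14 (adjusted p = 0.00225). No MPA library reached the vehicle libraries. The NDC80 complex, which grips microtubules, fell at both members listed, NUF2 (-0.49 ± 0.14) and NDC80 (-0.46 ± 0.12). CENPF (ENSG00000117724, chr1:214603195-214664588), a large protein of the outer kinetochore, was 252, 213 and 206 CPM in vehicle and 152, 191 and 193 in MPA. These libraries were apart, yet the change of -0.33 ± 0.12 did not pass (adjusted p = 0.0679). Nor did the motor CENPE (-0.19 ± 0.15) or the cohesin protectors SGO1 (-0.33 ± 0.14) and SGO2 (-0.21 ± 0.13).

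Kinesins fell in 8 of 9 cases. KIF11 (ENSG00000138160, chr10:92593286-92655395), the motor that pushes spindle poles apart, went from 152, 147 and 139 CPM to 91.4, 103 and 112. KIF18B (ENSG00000186185, chr17:44924709-44947711), which shortens astral microtubules, went from 6.91, 6.15 and 6.62 CPM to 3.77, 3.92 and 3.79. Vehicle and MPA libraries were apart for both. The changes were -0.51 ± 0.09 (adjusted p = 0.000786) and -0.78 ± 0.17 (adjusted p = 0.00326). KIF2C, a microtubule depolymerase, fell by 0.75 ± 0.16, KIF14 by 0.62 ± 0.12 and KIF20A by 0.61 ± 0.15. KIF23, a motor of the central spindle, fell by 0.35 ± 0.08. KIF20B did not pass (-0.14 ± 0.16), and its change was the smallest of all 54.

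Of the 5 tested spindle-associated proteins 3 fell. TPX2 (ENSG00000088325, chr20:31739271-31801805), the activator of AURKA, had 209, 188 and 186 CPM in vehicle and 133, 148 and 157 in MPA, a change of -0.41 ± 0.09 (adjusted p = 0.00532). DLGAP5 (ENSG00000126787, chr14:55148112-55191678) went from 106, 95.5 and 97.3 CPM to 59.3, 69.0 and 77.4 (-0.54 ± 0.12, adjusted p = 0.00354). Neither gene overlapped between the groups. HMMR, a spindle pole protein, fell by 0.45 ± 0.11. ASPM gave -0.35 ± 0.12 (adjusted p = 0.0713) and PRC1 -0.52 ± 0.43.

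Of the 6 genes listed under anaphase onset and sister chromatid release, 5 fell. PTTG1 (ENSG00000164611, chr5:160421822-160428744), securin, was 49.5, 43.6 and 42.1 CPM in promoter vehicle and 27.3, 29 and 32.9 in MPA, a change of -0.60 ± 0.13 (adjusted p = 0.00412). CDCA5 (ENSG00000146670, chr11:65066300-65084164), sororin, which guards cohesin, went from 19.5, 14.9 and 15.4 CPM to 9.42, 8.29 and 9.62 (-0.87 ± 0.20, adjusted p = 0.00455). Both were lower in every MPA library. CDC20, the activator of the anaphase-promoting complex, fell by 0.86 ± 0.25 and ESPL1 by 0.82 ± 0.23. CDCA3, a looser fit to this list, fell by 0.80 ± 0.14. UBE2C, the ubiquitin-conjugating enzyme of that complex, gave -0.52 ± 0.18 (adjusted p = 0.0619).

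In cytokinesis 2 of 3 genes fell. ANLN (ENSG00000011426, chr7:36389806-36453791) had 354, 337 and 339 CPM in vehicle and 229, 266 and 293 in MPA (-0.39 ± 0.10, adjusted p = 0.0148). All 3 MPA libraries were lower, but the call was lost without promoter vehicle replicate 1 (-0.36) or promoter MPA replicate 1 (-0.29). ECT2 (ENSG00000114346, chr3:172750682-172821474), which activates RhoA at the furrow, went from 134, 143 and 128 CPM to 89.6, 98.4 and 107, a change of -0.45 ± 0.09 (adjusted p = 0.00149). CEP55, an abscission protein, gave -0.26 ± 0.12. Of the chromosome and transcription genes, TOP2A (ENSG00000131747, chr17:40388516-40417950) went from 524, 515 and 414 CPM to 284, 338 and 359 (-0.57 ± 0.13, adjusted p = 0.00412). CDCA2 (ENSG00000184661, chr8:25458997-25507920), which brings a phosphatase to chromatin, fell from 46.2, 37.5 and 34.7 CPM to 21.2, 23.9 and 24.2 (-0.77 ± 0.15, adjusted p = 0.00172). Both genes were lower in every MPA library. MKI67, the Ki-67 antigen used to count cycling cells, gave -0.47 ± 0.17 (adjusted p = 0.0683), and the transcription factor FOXM1 -0.46 ± 0.22. Neither passed.

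The steepest falls were in a pair outside these roles. PIMREG (ENSG00000129195, chr17:6444415-6451469), a mitotic protein that binds the adaptor CALM, had 10.7, 8.79 and 8.13 CPM in promoter vehicle and 4.75, 3.54 and 4.83 in MPA. MTFR2 (ENSG00000146410, chr6:136231024-136250335), a mitochondrial protein, had 9.96, 8.41 and 8.02 against 3.84, 5.33 and 4.47. No library of 1 group reached those of the other. The changes were -1.07 ± 0.19 (adjusted p = 0.000662) and -0.95 ± 0.19 (adjusted p = 0.0018).

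**Figure D3:**
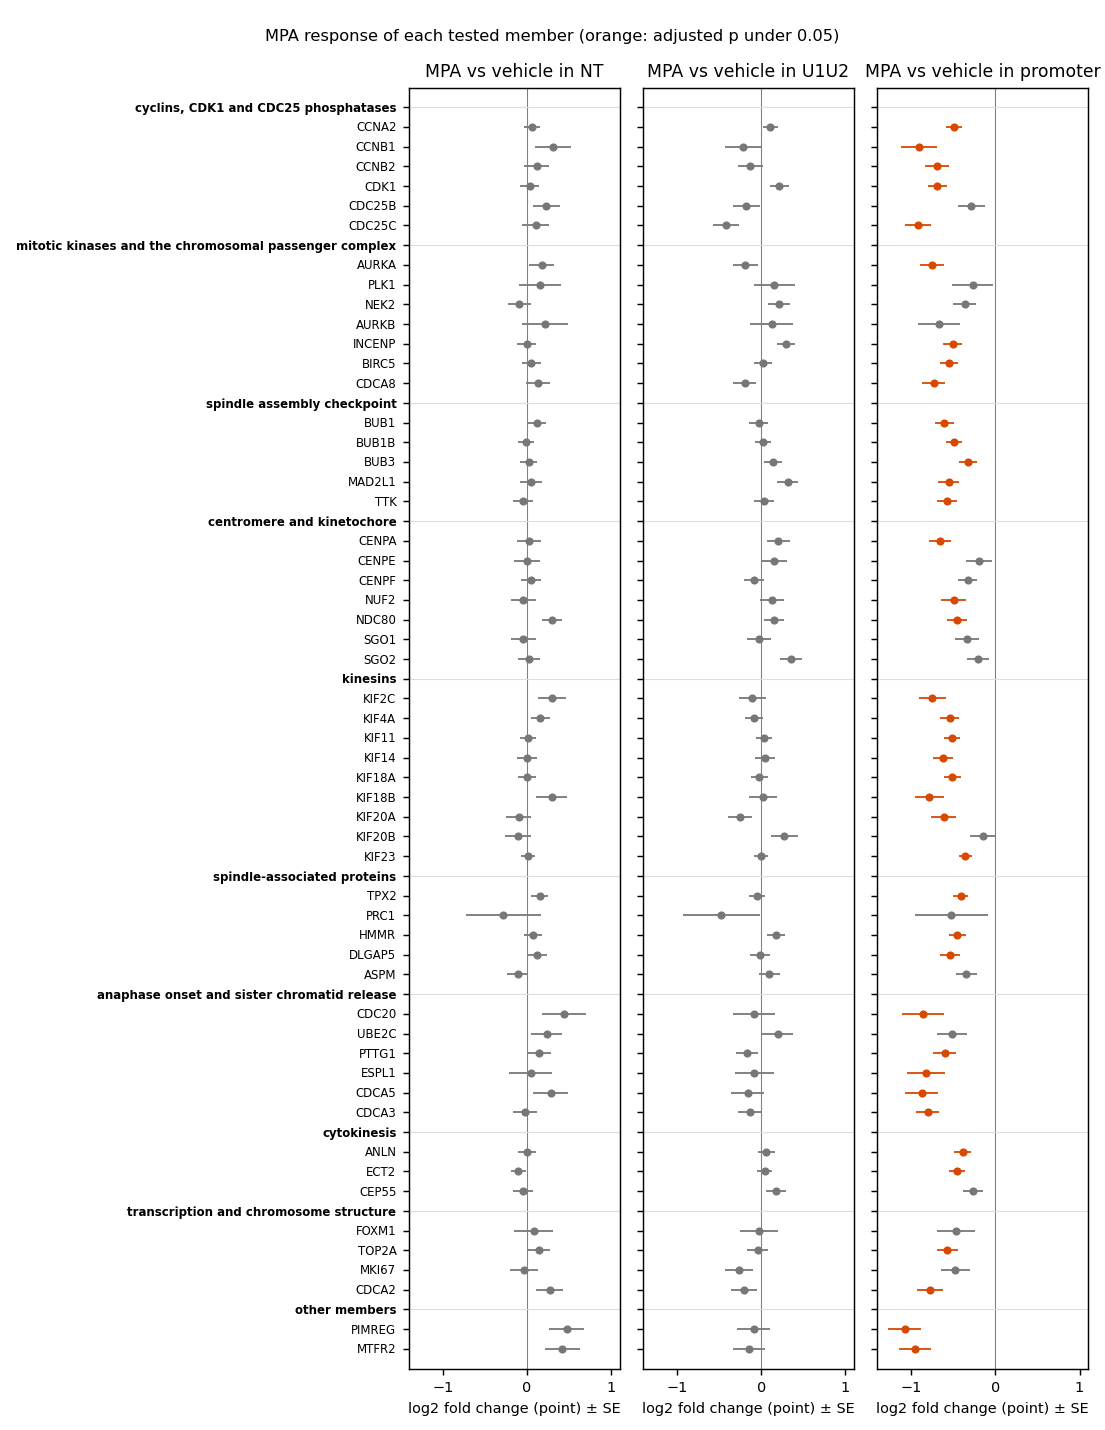
Log2 fold change ± SE of MPA against vehicle for each of the 54 tested members, in NT, U1U2 and promoter cells, grouped by role; orange marks an adjusted p under 0.05. In promoter cells 39 points are orange and all 54 lie below 0, and in NT and U1U2 cells no point is orange.

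In NT and U1U2 cells MPA changed no member past the threshold. In NT cells edgeR called 0 of 54, where 5.93% of all tested genes were called, and DESeq2 also called 0. At an unadjusted p under 0.05 there were 2, both higher: NDC80 (0.29 ± 0.12) and PIMREG (0.47 ± 0.21). Of all 15558 tested genes 1384 were lower and 1252 higher at that threshold. The median change of the members was 0.05. U1U2 cells likewise had 0 calls by edgeR and by DESeq2, against 11.7% of tested genes called, with a median of -0.01. At the unadjusted threshold 1 was lower, CDC25C (-0.42 ± 0.15), and 3 were higher, SGO2 (0.36 ± 0.13), MAD2L1 (0.32 ± 0.12) and INCENP (0.30 ± 0.11). Of all tested genes 1790 were lower and 1822 higher at it. The standard errors of the members had a median of 0.14 in each of these lines. BUB1 is an example. It had 43.6, 39.5 and 44.9 CPM in NT vehicle and 43.6, 41.9 and 53.3 in NT MPA, and 47.6, 55.0 and 47.5 in U1U2 vehicle and 48.1, 50.8 and 48.3 in U1U2 MPA. Within each line the vehicle and MPA libraries overlapped. The NT vehicle libraries were all below those of both U1U2 groups, and all 12 libraries lay below the 3 promoter vehicle libraries. Replicates differed more for CCNB1, at 71.4, 70.0 and 118 CPM in NT MPA and 73.9, 118 and 102 in U1U2 vehicle.

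**Figure D4:**
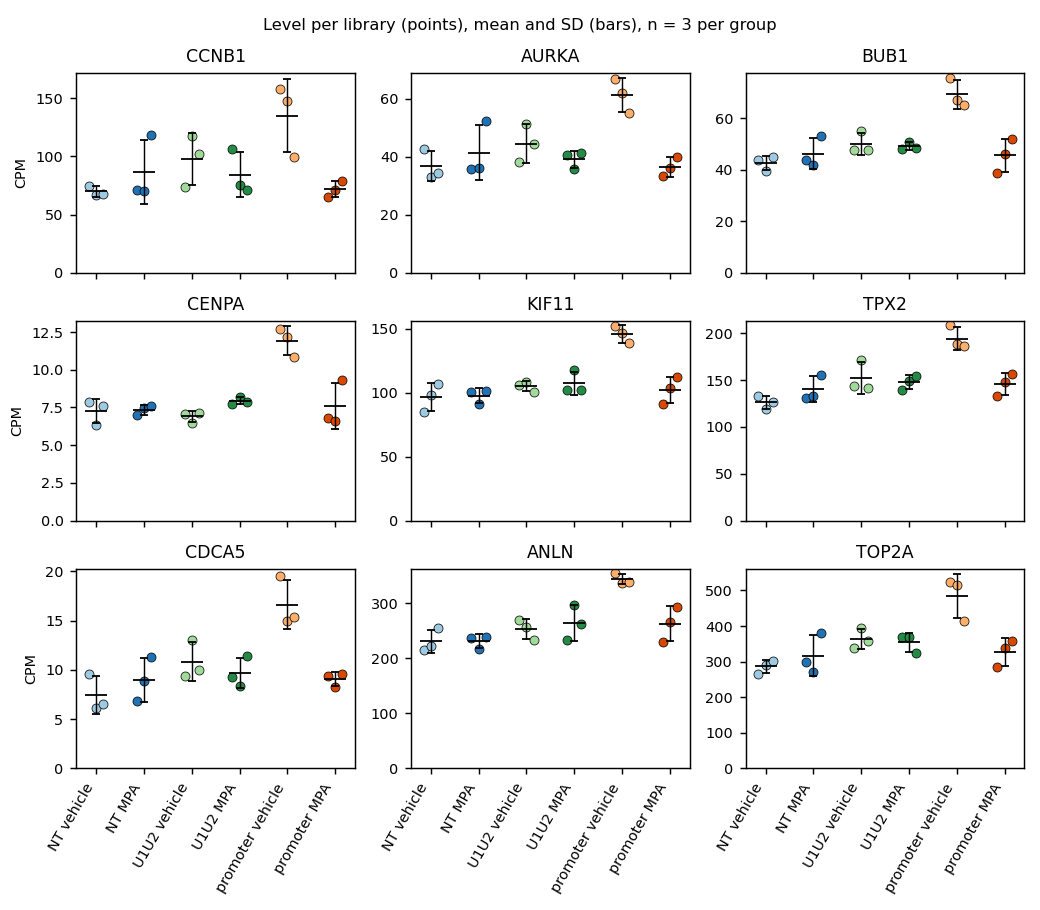
CPM of 9 members in each library (points) with the group mean and SD (bars, n = 3), over the 6 groups. For AURKA, BUB1, CENPA, KIF11, TPX2, CDCA5, ANLN and TOP2A the 3 promoter vehicle libraries lie above all others, and for CCNB1 promoter vehicle replicate 3, at 99.5 CPM, falls among them.

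Without progestin, promoter cells had more of nearly all mitotic transcripts than NT cells. By edgeR 45 of 54 members were higher and none lower, where 3.07% of tested genes were higher. The median was 0.67 on the log2 scale, a 1.59-fold higher level, against 0.00 for all tested genes. In 49 members every promoter library lay above every NT library, as in 10% of tested genes. Leaving out NT vehicle replicate 1, the shallowest library, gave 49 members, and the other single omissions gave 34 to 44. This comparison and the response of promoter cells to MPA share the 3 promoter vehicle libraries, so the 37 members called in both are not independent evidence. The summed epithelial, endothelial, leukocyte and stromal markers each overlapped between NT and promoter vehicle libraries.

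The excess took in every role. Of cyclins and partners 5 of 6 were higher, of kinases and passenger proteins 6 of 7, of checkpoint genes 4 of 5, of kinetochore genes 5 of 7, of kinesins 7 of 9 and of spindle-associated proteins 4 of 5. All 6 genes listed under anaphase onset and all 3 cytokinesis genes were higher, as were 3 of 4 transcription and chromosome genes. PIMREG stood at 4.18, 3.38 and 3.41 CPM in NT vehicle, and its excess in promoter cells was the largest, 1.34 ± 0.20 (adjusted p = 0.000689). MTFR2, at 3.26, 3.33 and 4.45 CPM in NT vehicle, was 1.26 ± 0.20 higher. No NT vehicle library of either gene reached the promoter vehicle range. CDC20 was higher by 1.22 ± 0.26, CDCA5 by 1.18 ± 0.20 and KIF18B by 1.15 ± 0.18. CENPF and TPX2 were higher by 0.67 ± 0.12 and 0.62 ± 0.10. The smallest called excess was that of ECT2, 0.47 ± 0.09.

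Calls for some of these genes depended on single libraries or on which groups were fitted. CCNB1 was higher by 0.95 ± 0.22 (adjusted p = 0.0119), but the call was lost without NT vehicle replicate 2 (0.92), without replicate 3 (0.93) or without promoter vehicle replicate 1 (0.82). That of CDC25C (0.70 ± 0.16) was lost without NT vehicle replicate 2 (0.59) or promoter vehicle replicate 1 (0.57). With only the compared groups fitted it was lost too (0.70). That of PTTG1 (0.59 ± 0.14) was lost without NT vehicle replicate 2 (0.51) or 3 (0.47) or promoter vehicle replicate 1 (0.51). It was also lost with only the compared groups fitted (0.58). The members that did not pass were BUB3, CDC25B, CENPE, FOXM1, KIF20A, KIF20B, PLK1, PRC1 and SGO1. In NT vehicle PLK1 had 20.8 CPM in replicate 1 against 11.4 and 11.6 in the others, and its difference was 0.60 ± 0.25 (adjusted p = 0.169). CDC20 showed the same order of NT vehicle libraries, at 15.8, 8.10 and 9.24 CPM. KIF20A, a motor of cytokinesis, gave 0.37 ± 0.15.

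In vehicle the U1U2 line did not pass against NT cells at any member, while 13 members were higher in promoter than in U1U2 cells. Against NT cells edgeR called 0 of 54 members, where 1.14% of tested genes were called, but 49 of 54 differences were positive and the median was 0.19. At an unadjusted p under 0.05, 16 were higher and none lower. Of all 15558 tested genes 1128 were higher and 1398 lower at that threshold. DESeq2 called 3 members, where 295 of 13446 genes with an adjusted p were lower and 178 higher. The largest differences were those of MTFR2 (0.72 ± 0.20, adjusted p = 0.0931) and PIMREG (0.66 ± 0.21, adjusted p = 0.131). Without U1U2 vehicle replicate 1 the edgeR count was 1. Promoter cells in vehicle exceeded U1U2 cells at 13 members, against 0.527% of tested genes, with a median of 0.46 and all 54 differences positive. In 48 members the promoter libraries were all above the U1U2 libraries, as in 6.09% of tested genes. CENPA was at 7.1, 6.5 and 7.13 CPM in U1U2 vehicle, no higher than in NT vehicle (7.87, 6.34 and 7.60). Its difference between promoter and U1U2 cells was the largest, 0.79 ± 0.14 (adjusted p = 0.0089). MAD2L1 (0.70 ± 0.12), CDK1 (0.64 ± 0.11), NEK2 (0.63 ± 0.13) and INCENP (0.62 ± 0.11) also passed. The count of 13 was fragile. It was 6, 1 and 2 without U1U2 vehicle replicate 1, 2 or 3, and 3, 1 and 5 without promoter vehicle replicate 1, 2 or 3, and no member passed in every such fit. With the 2 groups fitted alone edgeR called 0 members, where 3 of 15346 tested genes were lower and 8 higher. DESeq2 called 27 members, where 107 of 14351 genes with an adjusted p were lower and 158 higher.

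Under MPA no member was called between lines. Promoter against NT cells gave 0 calls, with 4.15% of tested genes called and a median of 0.06. At the unadjusted threshold 908 of 15558 tested genes were higher. The members among them were 4: ASPM (0.33 ± 0.12), SGO2 (0.32 ± 0.13), CENPF (0.30 ± 0.12) and CEP55 (0.27 ± 0.12). U1U2 against NT cells also gave 0 calls (1.72% of tested genes called, median 0.13). At the unadjusted threshold 9 members were higher, as were 624 of all tested genes. Promoter against U1U2 cells gave 0 (0.328% called, median -0.07). CDK1 was lower at the unadjusted threshold (-0.27 ± 0.11), as were 375 of all tested genes. DESeq2 called 0 in each of these comparisons. A missing call does not show that the lines were equal.

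**Figure D5:**
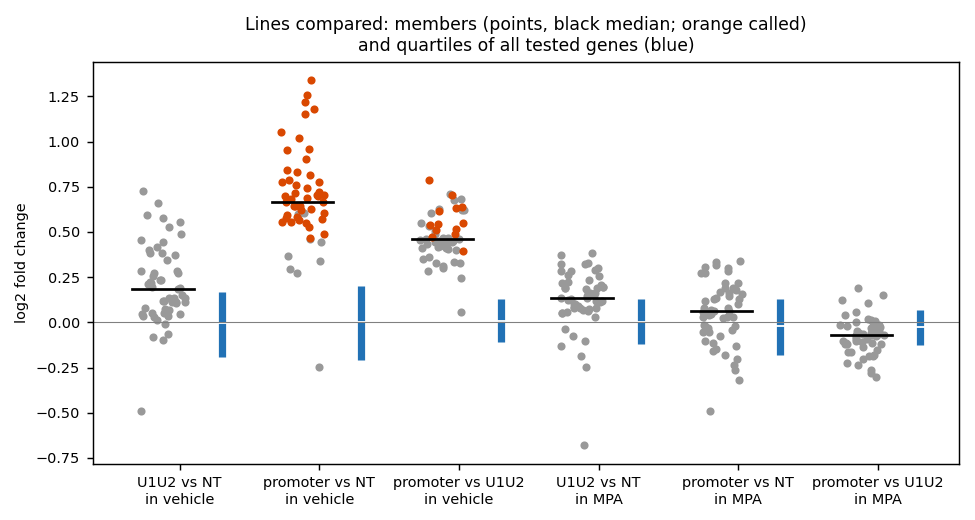
Log2 fold changes between lines, in vehicle (left) and in MPA (right): points are the 54 tested members (orange, called; black bar, median) and blue bars the quartiles of all tested genes. The medians of members are 0.19, 0.67 and 0.46 in vehicle and 0.13, 0.06 and -0.07 in MPA.

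Whether the lines differed in their response to MPA was tested directly. Where promoter cells enter, these tests use the same 3 promoter vehicle libraries as the comparisons above, and are not independent evidence. The response of promoter cells was lower than that of NT cells at 14 of 54 members, where 0.752% of tested genes were lower. At an unadjusted p under 0.05 it was lower at 43 members, and at 1316 of 15558 tested genes. All 54 differences of responses were negative, with a median of -0.58. PIMREG had the largest called difference, -1.54 ± 0.29 (adjusted p = 0.00836), and was called in every fit that left out 1 library. The others were MTFR2, KIF18B, CDCA2, KIF2C, CDC25C, AURKA, CDCA8, NDC80, CDK1, BUB1, KIF4A, TPX2 and CCNA2. The count depended on single libraries: it was 1 and 4 without NT vehicle replicate 2 or 3, 3 without NT MPA replicate 3, and 1 and 8 without promoter vehicle replicate 1 or 2. It was 1, 2 and 4 without promoter MPA replicate 1, 2 or 3. DESeq2 called 25. For promoter against U1U2 cells edgeR called 0 members (0.0129% of tested genes called). DESeq2 called 6 members, where 28 of 12240 genes with an adjusted p were lower and 30 higher. The median was -0.56, and all 54 differences were negative. At an unadjusted p under 0.05, 44 members were lower, as were 460 of 15558 tested genes. CDK1 came closest, at -0.91 ± 0.16 (adjusted p = 0.0633). The U1U2 response did not differ from that of NT cells at any member by edgeR or DESeq2 (0.219% of tested genes called, median -0.10). At the unadjusted threshold 2 were lower, CDC25C (-0.52 ± 0.22) and CDCA2 (-0.48 ± 0.22), as were 674 of all tested genes.

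Other genes of cell division were counted in the same fits, from lists that hold none of the members. These lists too were chosen with earlier results of these data known. Over all tested genes 8.4% fell with MPA in promoter cells and 3.07% were higher in promoter than in NT cells in vehicle. Of 35 DNA replication genes, 20 fell with MPA in promoter cells (median -0.44), and 26 were higher in promoter than in NT cells in vehicle (median 0.64). The replication licensing factor CDC6 fell by 0.71 ± 0.11, RRM2, a subunit of ribonucleotide reductase, by 0.69 ± 0.08, and the transcription factor E2F2 by 1.23 ± 0.28. Of 31 other G2/M and spindle genes 20 fell (median -0.54), among them TROAP (-0.999 ± 0.20), the microtubule destabiliser STMN1 (-0.99 ± 0.14) and GTSE1 (-0.93 ± 0.18), and 18 were higher in vehicle. Of 29 other kinetochore genes 14 fell (median -0.38), including CENPM (-1.31 ± 0.39), CENPU (-0.72 ± 0.12) and CENPI (-0.71 ± 0.12), and 14 were higher in vehicle. Of 17 cohesin and condensin genes 4 fell (median -0.16), with the condensin subunits NCAPG (-0.82 ± 0.16) and NCAPH (-0.74 ± 0.13) furthest, and 6 were higher in vehicle.

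Few genes of the anaphase-promoting complex or of the DREAM and MuvB complexes were called. Lists of 17 and 12 genes are too short to place against the 8.4% and 3.07% of all tested genes. Of 17 subunits and regulators of the anaphase-promoting complex none fell with MPA in promoter cells (median -0.11), and 1, its inhibitor FBXO5, was higher in promoter cells in vehicle (0.45 ± 0.12). Of 12 genes of the DREAM and MuvB complexes, 2 fell, RBL1 (-0.37 ± 0.08) and TFDP1 (-0.50 ± 0.16), with a median of -0.15. RBL1 was also the 1 gene of that list that was higher in vehicle (0.37 ± 0.08). With MPA in U1U2 cells, where 11.7% of all tested genes were called, 2 of 31 other G2/M and spindle genes, 1 of 29 other kinetochore genes and 1 of 17 genes of the anaphase-promoting complex list passed, and none of the other 3 lists. STMN1 (-0.68 ± 0.14), the CDK1 inhibitor WEE1 (-0.51 ± 0.14) and SPDL1 (-0.33 ± 0.10) fell, and ANAPC16 rose by 0.34 ± 0.08. WEE1 was also lower in promoter than in NT cells under MPA (-0.52 ± 0.14).

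The response to MPA in promoter cells was also counted by promoter element. With a CHR of either form the median change under MPA was -0.52 and 27 of 36 tested members fell. Without one the median was -0.60 and 5 of 9 fell. With a CCAAT box the median was -0.54 and 25 of 36 fell, and without one it was -0.49 and 7 of 9 fell. These counts were not tested against each other.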

How the data were processed

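Gene-level read counts (whole numbers) were deposited, and so was a log2 CPM table. Per the submitters' processing notes, STAR 2.6.0c, edgeR 4.2.2, R 4.4.1 and hg38 were used; the counter, its strand setting and the annotation are not given in the sources used here. Per the labels' protocols, libraries were stranded mRNA libraries. The deposited log2 CPM (10402 genes, 53 members) lay within 5e-09 of edgeR's values from the counts with TMM factors and prior count 2, and entered no test.

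Counts were tested here with edgeR 4.0.16 in R 4.3.3: filterByExpr (minimum count 10), TMM factors, 1 term per group over all 18 libraries, and quasi-likelihood F tests of 12 contrasts. P-values were Benjamini-Hochberg adjusted over 15558 genes and called under 0.05; printed adjusted p-values are from this test. CPM uses TMM-scaled totals. Alternatives were other scalings, no filter, a replicate block, DESeq2 1.42.0, fits of the compared groups alone and leaving out each library. Scripts were tested on simulated data. Within groups, libraries differed beyond counting noise (chi-square per degree of freedom 1.95 to 34.9). All libraries have 1 batch label. Positions are from GENCODE 29.

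The members and lists were chosen with earlier results of these data known. Values per library are given for the most abundant member of each role list and the one with the largest MPA change, and up to 3 called genes are named per other list and contrast.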

Additional observations from a re-analysis of the deposited data

Results flagged for a closer look

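The difference between the MPA responses of promoter and NT cells passed the interaction test for 14 members, and each is listed here as a log2 difference (promoter minus NT). It was -1.54 for PIMREG, -1.37 for MTFR2, -1.07 for KIF18B, -1.04 for CDCA2 and -1.04 for KIF2C. For CDC25C it was -1.02, for AURKA -0.92, for CDCA8 -0.86, for NDC80 -0.75 and for CDK1 -0.72. For BUB1 it was -0.72, for KIF4A -0.70, for TPX2 -0.56 and for CCNA2 -0.54. The motors, kinases and passenger proteins among them fell with MPA in promoter cells, and none of the 14 passed in NT cells. All 14 rest on the same 12 libraries, which include the promoter vehicle libraries of the other comparisons.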

How the results depend on the processing

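The fall of members with MPA in promoter cells (39) and their excess over NT cells in vehicle (45) stayed within 1.5 times of these counts under every alternative run; leaving out each library gave 33 to 38 and 34 to 49. With U1U2 against NT cells in vehicle, 11 were called with no filter, 3 with DESeq2 and 0 to 1 when each library was left out. Over all tested genes the main fit called 111 lower and 67 higher of 15558. With no filter it was 445 lower and 363 higher of 40165. For promoter against U1U2 cells in vehicle the count of 13 became 24 with no filter, 27 with DESeq2, 0 with the compared groups fitted alone and 1 to 6 with a library left out. All tested genes went from 40 lower and 82 higher to 39 lower and 115 higher with no filter. The 14 differences of response between promoter and NT cells became 27 with no filter, 25 with DESeq2 and 1 to 16 with a library left out. For all tested genes 117 lower and 125 higher became 460 lower and 298 higher with no filter. Between promoter and U1U2 cells the members with a called difference of response went from 0 to 1 with library totals alone, 3 with no filter and 6 with DESeq2. All tested genes went from 1 lower and 1 higher to 2 and 1, 11 and 7, and 28 and 30 in those fits. The cause of these changes was not tested. Same-numbered replicates did not steadily deviate together (correlations from -0.47 to 0.20). In promoter cells MPA replicates 1 (0.20) and 2 (0.16) matched their own vehicle number best, and replicate 3 (-0.04) did not. With 3 libraries per group this cannot exclude a pairing. With a replicate block promoter against U1U2 cells gave 7 and the promoter minus NT responses 3. Over all tested genes the block gave 21 lower and 48 higher, and 61 lower and 89 higher. Single genes were followed only for the most abundant and most MPA-changed member of each role list. This was done for the MPA response of promoter cells and for promoter against NT cells in vehicle. Of these 456 alternative values, 434 kept direction and side of the threshold, 20 lost the call, 2 gained it and 0 reversed. The other comparisons are not in this count. PRC1 (2 to 17 counts) and NUSAP1 (0 to 3) had too few counts for a precise value.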
